A study of Mus musculus with 24 samples.

Results

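The 9 genes described here are the Id genes Id1, Id2 and Id3 and a further 6 from the signalling pathways of transforming growth factor beta (TGF-β) and bone morphogenetic proteins (BMPs): Smad6, Smad7, Skil, Tgfb1, Tgfbr1 and Bmpr2. They were taken by gene symbol from 18063 genes listed for M1 and 17786 listed for M2 macrophages, and all 9 were listed in both sets. They were chosen by name, for their roles, with the expression values of these libraries already known, those of DA-treated WT cells above all, so the contrasts that include DA-treated WT cells are described for them and nothing is tested on them. RNA was measured in bone-marrow-derived macrophages (BMDMs) from C57BL/6 mice of 10 weeks, either wild type (WT) or lacking the dopamine receptor DRD5 (DRD5-/-, knockout mice made with CRISPR-Cas9). M1 BMDMs were those given LPS at 100 ng/ml plus IFN-γ at 50 ng/ml, and M2 BMDMs those given IL-4 plus IL-13, at 10 ng/ml of each, always for 12 h and with or without dopamine (DA). Each of the 8 groups, formed by stimulus, genotype and DA, held 3 libraries, 24 in all. The labels do not say whether 3 libraries came from 3 mice or 3 cultures, so every p-value measures the spread between these libraries, which may be technical. There was no unstimulated group, so a value with cytokines alone is called untreated here with respect to DA only. Sources also differ on the origin of the cells: the study's methods name tibias and femurs, 1 label gives the tissue as bone, and a growth note mentions colons.

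Id proteins are helix-loop-helix proteins without the basic region that contacts DNA. They pair with E proteins, the transcription factors encoded by Tcf3, Tcf4 and Tcf12, and keep them from binding DNA. BMPs bind type II receptors such as the product of Bmpr2 together with type I receptors and activate Smad1 and Smad5, whereas TGF-β binds Tgfbr2 together with Tgfbr1 and activates Smad2 and Smad3. Activated Smads enter the nucleus with Smad4, and Id1, Id2, Id3, Smad6, Smad7 and Skil are known to be transcribed in response. Smad6 and Smad7 are inhibitory Smads that block the receptors, and the Skil protein (SnoN) represses Smad-dependent transcription, so these 3 genes form negative feedback. Macrophages are known as a source of TGF-β1 and as responders to it.

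RefSeq windows ending at an annotated start of transcription were matched for 6 of the 9 genes (Id2, Id3, Smad6, Tgfb1, Tgfbr1 and Bmpr2), on build GRCm38.p6. The 250 bases before the start are shown for Id2, Id3 and Smad6, the 3 matched genes among those with the greatest differences in M2 BMDMs. Capitals mark GTCT or its reverse complement AGAC, the short motif known to be bound by Smads, GGCGCC, a GC-rich motif known from BMP-responsive promoters, and TGACG or its reverse complement CGTCA, part of the motif known to be bound by CREB. The windows are chr12:25096093-25096342 on the minus strand for Id2, chr4:136143572-136143821 on the plus strand for Id3 and chr9:64022060-64022309 on the minus strand for Smad6, each printed 5′ to 3′ in the direction of transcription. In the GENCODE annotation Id2 spans 25093799-25097140 and Id3 spans 136143497-136145755. Their windows thus lie inside the annotated genes, downstream of the outermost start, and only that of Smad6 lies upstream of its gene.
Id2: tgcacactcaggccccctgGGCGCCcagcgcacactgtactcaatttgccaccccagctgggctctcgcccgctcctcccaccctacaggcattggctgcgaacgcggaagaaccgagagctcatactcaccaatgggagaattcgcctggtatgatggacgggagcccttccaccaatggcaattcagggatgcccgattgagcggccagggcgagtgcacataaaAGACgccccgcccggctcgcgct
Id3: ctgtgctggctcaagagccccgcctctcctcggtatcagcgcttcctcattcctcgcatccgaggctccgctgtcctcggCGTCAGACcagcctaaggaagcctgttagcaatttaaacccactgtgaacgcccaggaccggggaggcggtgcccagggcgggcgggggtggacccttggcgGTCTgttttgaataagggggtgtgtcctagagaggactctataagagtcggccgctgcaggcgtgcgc
Smad6: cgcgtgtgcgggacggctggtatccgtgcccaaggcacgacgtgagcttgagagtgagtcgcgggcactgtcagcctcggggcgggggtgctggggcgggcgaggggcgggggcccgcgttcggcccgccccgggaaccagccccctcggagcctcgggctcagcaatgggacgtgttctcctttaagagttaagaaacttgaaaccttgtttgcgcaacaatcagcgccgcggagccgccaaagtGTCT

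In these 250 bases, searched on both strands, Id2 held 1 GTCT match beginning 23 bases before the start and 1 GGCGCC match beginning 231 bases before it. Id3 held GTCT matches at 166 and 68 bases and a TGACG match at 170 bases before the start, and the latter overlapped the match at 166 by 1 base. Smad6 held 1 GTCT match, which occupied the last 4 bases of the window. The motif GTCT is short and was present in 82.9% of 32851 such windows of all genes, TGACG in 17.8% and GGCGCC in 9.59%. The longer motifs GTCTAGAC, present in 0.167% of all windows, and TGACGTCA, present in 1.55%, were in none of the 7 windows of the 6 genes. The windows of Tgfbr1 and Bmpr2 held GGCGCC matches at 233 and 105 bases before the start. A match is a sequence description only, and no binding was measured here.

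Across the 24 libraries the authors' FPKM (fragments scaled by the transcript's length and the library's mapped fragments) summed to between 476187 and 503799, with 9774 to 9879 genes at 1 FPKM or more in M1 libraries and 10349 to 10444 in M2 libraries. The files hold no read counts, so the sequencing depth behind each value is unknown. Across genes, which are no independent replicates, r between libraries within a group was at least 0.9982 in M1 and 0.9983 in M2 on the log2(FPKM + 1) scale. All 8 of 8 macrophage markers (among them Adgre1, Csf1r and Cd68) averaged over 1 FPKM in each group. Drd5 was not listed in M1 and lay between 0.0 and 0.06 FPKM in M2 WT libraries against 0.0 in M2 DRD5-/- libraries, so its level could not check the genotype. Sums over marker lists of other cell types also differed between groups, although members of a list could move in opposite directions. Summed FPKM of 8 stromal markers, collagens included, was 134.37 to 136.74 in untreated M2 WT, 111.55 to 112.32 in DA-treated M2 WT, 86.25 to 88.38 in untreated and 93.76 to 94.95 in DA-treated M2 DRD5-/- BMDMs, and at most 5.73 in any M1 library. Summed FPKM of 7 neutrophil markers was 42.61 to 54.46 in untreated and 61.96 to 80.61 in DA-treated M1 WT BMDMs, and 14.63 to 20.06 in the 6 M1 DRD5-/- libraries, with Elane at 0.0 in all 12 M1 libraries and Ly6g at no more than 0.33. Summed FPKM of 4 megakaryocyte markers was 5.96 to 7.51 in untreated M2 WT and 103.9 to 108.0 in DA-treated M2 WT BMDMs, of which Pf4, a chemokine gene also known in macrophages, gave 101.62 to 105.31, while Itga2b was at no more than 0.07 and Gp9 at 0.0 in the DA-treated libraries. Summed FPKM of 5 endothelial markers was 16.45 to 17.62 in untreated M2 WT, 14.56 to 15.04 in DA-treated M2 WT, 20.44 to 20.80 in untreated and 17.29 to 19.92 in DA-treated M2 DRD5-/- BMDMs. Lists for T cells, B cells and erythroid cells each summed to at most 3.56 FPKM in any library. In such bulk samples, fewer cells of a type and less RNA per cell cannot be told apart.

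With IL-4 and IL-13, DA-treated WT BMDMs held the highest level of all 8 groups for Id1, Id2, Id3, Smad6, Smad7 and Tgfb1. The members were chosen with these values known, and the share of all genes highest in that group was not counted. By the threshold for calls, 25.9% of all genes tested in M2 were higher with DA in WT. Their levels of Id1, Smad6, Id3 and Smad7 were 14.5, 7.21, 4.63 and 3.36 times those of untreated M2 WT BMDMs as ratios of mean FPKM. In M2 DRD5-/- BMDMs the log2 differences of these 6 genes with DA lay between -0.14 and -0.02, and none was called. Smad6 was below 1 FPKM in both of those groups, where a call was hardly possible on this scale. With LPS and IFN-γ, DA-treated WT BMDMs instead held the lowest mean level of all 8 groups for Id1, Id2 and Tgfb1. Levels are set side by side across the M1 and M2 files, which list different genes. Stimulus cannot be told apart from the set of files, so no test was made between M1 and M2.

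**Figure D1:**
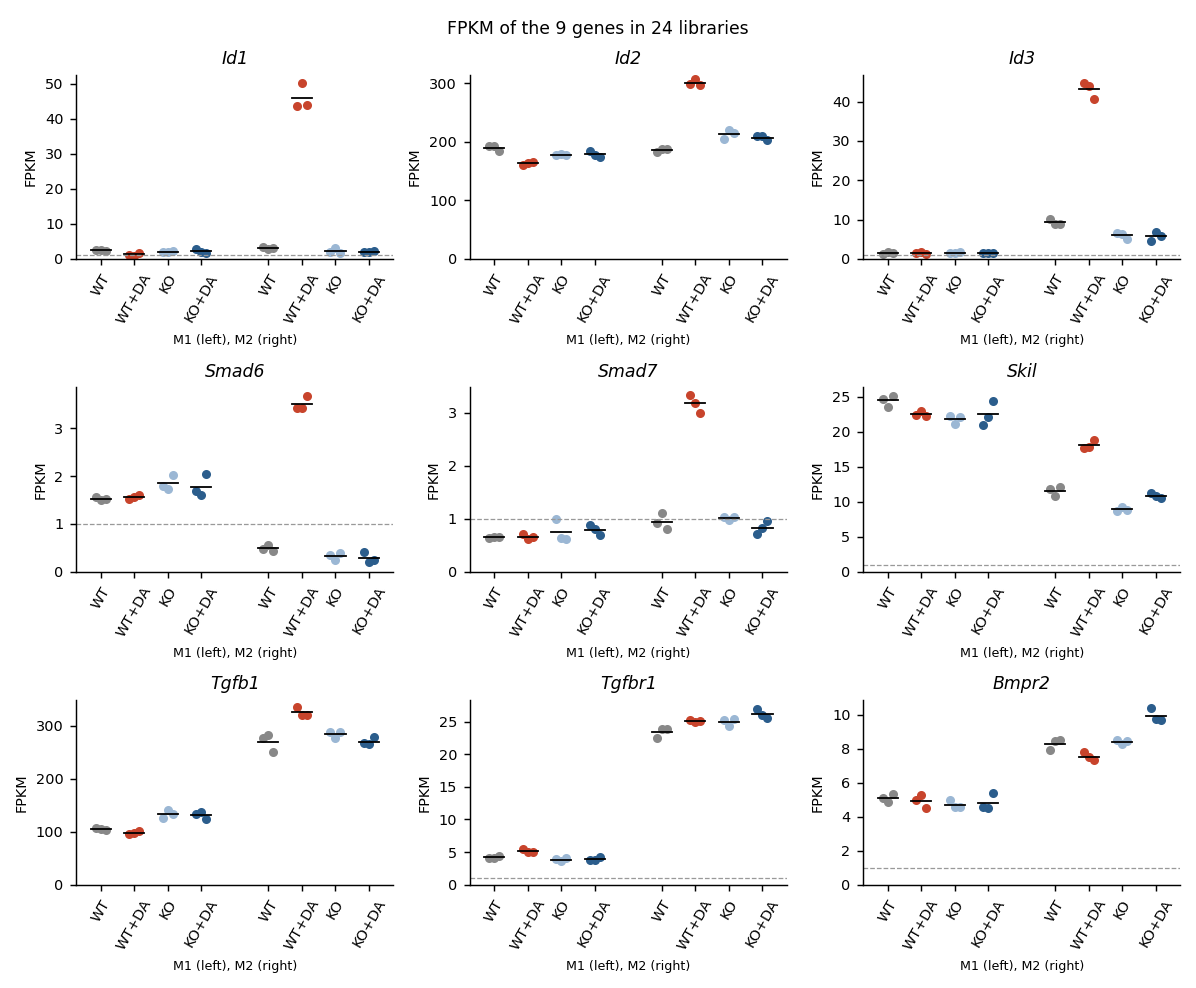
FPKM of the 9 genes (vertical axes, linear, starting at 0, 1 panel per gene) in each of the 24 libraries (points) by group (horizontal axis), with bars at the mean of 3 libraries and a dashed line at 1 FPKM where the scale allows. The 3 DA-treated M2 WT libraries stand above all other libraries for Id1, Id2, Id3, Smad6, Smad7 and Tgfb1. The genes were chosen with these values known, and the share of all genes that do so was not counted.

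Id1 (chr2:152736251-152737410, plus strand, GRCm38) encodes an Id protein known as a sensitive target of BMP signalling. In untreated M2 WT BMDMs its FPKM was 3.53, 2.76 and 3.19, and in DA-treated M2 WT BMDMs it was 43.69, 50.12 and 43.89 (45.9 ± 3.66, SD, n = 3). Every DA-treated library was therefore far above every untreated one. Untreated M2 DRD5-/- libraries held 1.85, 2.97 and 1.71 FPKM, and DA-treated M2 DRD5-/- libraries held 1.85, 2.05 and 2.38 FPKM. These 2 groups overlapped, and all 6 libraries were under the lowest DA-treated WT library. On the log2(FPKM + 1) scale, which understates changes of low genes, the difference with DA in M2 WT was 3.50 (SE 0.12) and in M2 DRD5-/- it was -0.02 (SE 0.12, adjusted p = 0.917).

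In M1 BMDMs the direction for Id1 was the opposite. Untreated M1 WT libraries held 2.45, 2.61 and 2.32 FPKM, and DA-treated M1 WT libraries held 1.09, 0.88 and 1.80 FPKM. The groups did not overlap, although 1 DA-treated library, replicate 3, was nearer to the untreated ones. The log2 difference was -0.64 (SE 0.13), -0.80 without that library and -0.97 with a pseudocount of 0.1 in place of 1. It was not called, but was called without that library or without replicate 1 of DA-treated M1 DRD5-/- BMDMs. Untreated and DA-treated M1 DRD5-/- libraries ranged from 1.96 to 2.23 FPKM and from 1.75 to 2.76 FPKM, with a log2 difference of 0.01 (SE 0.13, adjusted p = 0.998). Id1 in untreated M1 BMDMs differed by -0.16 between DRD5-/- and WT (log2, SE 0.13, adjusted p = 0.472) and was not called.

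Id2 (chr12:25093799-25097140, minus strand) was by far the most abundant Id gene in these macrophages. Its FPKM in M2 WT was 182.71, 186.82 and 187.52 without DA and 298.47, 307.36 and 296.09 with DA, a 1.62-fold difference in groups that did not overlap (log2 difference 0.69, SE 0.03). In M2 DRD5-/- it was 205.03, 220.68 and 214.27 without DA and 209.79, 209.01 and 202.81 with DA (log2 difference -0.04, SE 0.03, adjusted p = 0.281). Without DA, M2 DRD5-/- BMDMs thus stood above M2 WT BMDMs, with a log2 difference of 0.20 (SE 0.03, adjusted p = 0.000129), which was 1.15-fold and below the 1.2-fold limit used for calls. In M1 WT, Id2 was at 191.88, 192.81 and 184.13 FPKM without DA and 159.83, 164.37 and 164.74 FPKM with DA. These groups did not overlap either, with DA-treated libraries lower (log2 difference -0.22, SE 0.03, 1.16-fold and under the fold limit). In M1 DRD5-/- BMDMs, Id2 averaged 178.2 FPKM without and 178.9 FPKM with DA (log2 difference 0.01, SE 0.03).

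Id3 (chr4:136143497-136145755, plus strand) was low in every M1 library, between 1.25 and 1.81 FPKM, with no order among the 4 M1 groups that exceeded their spread. M2 WT libraries held 10.14, 8.99 and 8.84 FPKM without DA and 44.73, 44.06 and 40.65 FPKM with DA. The log2 difference was 2.10 (SE 0.10), and the groups did not overlap. M2 DRD5-/- libraries held 6.56, 6.25 and 5.06 FPKM without DA and 4.62, 6.72 and 5.78 FPKM with DA, 2 groups that overlapped (log2 difference -0.06, SE 0.10, adjusted p = 0.698). Without DA, Id3 was lower in M2 DRD5-/- than in M2 WT BMDMs (log2 difference -0.57, SE 0.10, adjusted p = 0.000935), all 3 libraries lying under the lowest WT library. That adjusted p was close to the threshold of 0.001. The call held when replicate 1 or 2 of DA-treated M2 DRD5-/- BMDMs was left out of the fit and was lost without any 1 of the other 10 libraries, with adjusted p of 0.00139 to 0.00567. It was also lost with a pseudocount of 0.1, median-of-ratios scaling, a replicate block, no filter, no trend or only the groups compared. The adjusted p from limma was then 0.00114 to 0.00539. Id1 had a difference of -0.41 in the same contrast (SE 0.12, adjusted p = 0.0242) and was not called.

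Summed over Id1, Id2, Id3 and Id4, mean FPKM was 198.4 in untreated and 389.8 in DA-treated M2 WT BMDMs, and 221.6 and 215.1 in untreated and DA-treated M2 DRD5-/- BMDMs. Id2 made up 93.6% of this sum in untreated M2 WT BMDMs and 77.1% in DA-treated M2 WT BMDMs, where Id1 made up 11.8% and Id3 11.1%. In untreated M2 WT BMDMs Id1 made up 1.59% and Id3 4.70%. Id4 gave at most 0.141% in any library. In M1 BMDMs the sums ran from 165.8 to 193.6 FPKM, of which Id2 made up 97.9% to 98.3%.

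**Figure D2:**
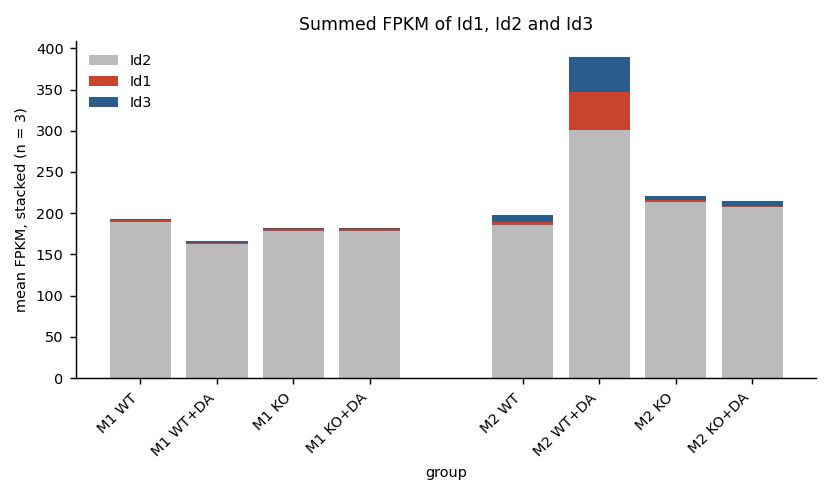
Stacked bars of mean FPKM (vertical axis, linear, starting at 0; n = 3 libraries per group) of Id2, Id1 and Id3 in the 8 groups (horizontal axis). DA-treated M2 WT BMDMs have the tallest bar and the only one in which Id1 and Id3 each exceed 10% of the summed Id genes.

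The inhibitory Smads were near or under 1 FPKM in most groups. Smad6 (chr9:63953076-64022059, minus strand), the product of which is best known for blocking BMP receptors, was at 0.48, 0.55 and 0.43 FPKM in untreated M2 WT BMDMs, below 1 FPKM, and at 3.43, 3.42 and 3.68 FPKM in DA-treated M2 WT BMDMs. In the 6 M2 DRD5-/- libraries it lay between 0.20 and 0.41 FPKM. The DA-treated M2 WT libraries were the only M2 libraries over 1 FPKM, so Smad6 passed the minimum for testing in M2 only through that group, and its log2 difference of 1.60 (SE 0.08) (2.63 with a pseudocount of 0.1) is given as a description. In M1 BMDMs Smad6 was between 1.49 and 1.60 FPKM in the 6 WT libraries, with or without DA, and between 1.60 and 2.05 FPKM in the 6 DRD5-/- libraries. The M1 log2 difference between untreated DRD5-/- and untreated WT BMDMs was 0.17 (SE 0.07, adjusted p = 0.135) and was not called.

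Smad7 (chr18:75367529-75395935, plus strand), which blocks receptors of both TGF-β and BMPs, was at 0.92, 1.10 and 0.81 FPKM in untreated M2 WT BMDMs and at 3.34, 3.19 and 2.99 FPKM in DA-treated M2 WT BMDMs. The groups did not overlap (log2 difference 1.11, SE 0.07, and 1.66 with a pseudocount of 0.1). M2 DRD5-/- libraries held 1.03, 0.98 and 1.04 FPKM without DA and 0.72, 0.82 and 0.96 FPKM with DA (log2 difference -0.14, SE 0.07, adjusted p = 0.156). In M1 BMDMs Smad7 was below 1 FPKM in 11 of 12 libraries and at 1.0 FPKM in 1 untreated DRD5-/- library, and it was not tested there.

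Skil (chr3:31095058-31122577, plus strand) differed from the other 8 genes in the order of its groups, because all 12 M1 libraries (20.99 to 25.10 FPKM) lay above all 12 M2 libraries (8.72 to 18.82 FPKM). In M2 WT BMDMs it was at 11.82, 10.82 and 12.12 FPKM without DA and at 17.69, 17.77 and 18.82 FPKM with DA, without overlap (log2 difference 0.60, SE 0.05). In M2 DRD5-/- BMDMs it was at 8.72, 9.25 and 8.78 FPKM without DA and at 11.25, 10.87 and 10.50 FPKM with DA, also without overlap. That log2 difference of 0.26 (SE 0.05) had an adjusted p of 0.000881 but was 1.197-fold, just under the fold limit, and Skil was called at a pseudocount of 0.1 (0.28). It was the lowest adjusted p of the 9 genes with DA in M2 DRD5-/- BMDMs. The log2 difference in WT was larger by 0.34 (SE 0.06), a difference that lost its call without replicate 3 of either DA-treated group or replicate 2 of untreated DRD5-/- BMDMs (0.32 in each). Without DA, Skil was lower in M2 DRD5-/- than in M2 WT BMDMs (log2 difference -0.34, SE 0.05, adjusted p = 8.56e-05), a call that was lost with only the groups compared in the fit (adjusted p = 0.00131). In M1 BMDMs the difference with DA was -0.11 in WT (SE 0.05) and 0.04 in DRD5-/- (SE 0.05, adjusted p = 0.923).

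Tgfb1 (chr7:25687002-25705077, plus strand), which encodes the ligand TGF-β1, was above 95 FPKM in every library and higher in every M2 than in every M1 library. In M2 WT it was at 276.92, 282.50 and 250.26 FPKM without DA and at 335.68, 319.89 and 319.88 FPKM with DA. The groups did not overlap, but the log2 difference of 0.27 (SE 0.04) was 1.205-fold and barely past the fold limit. It was 0.22 without untreated M2 WT replicate 3, and 0.25 without DA-treated M2 WT replicate 1 or under median-of-ratios scaling, all under the limit. M2 DRD5-/- BMDMs averaged 283.8 FPKM without and 269.9 FPKM with DA (log2 difference -0.07, SE 0.04, adjusted p = 0.181). In M1 the genotypes stood apart without DA: WT libraries held 107.57, 104.47 and 102.14 FPKM and DRD5-/- libraries 125.91, 140.34 and 132.48 FPKM. This log2 difference of 0.34 (SE 0.04, adjusted p = 0.000187, 1.27-fold) was the only call among the 8 members tested in that contrast. It lost its adjusted p, which went to between 0.00118 and 0.00167, when any 1 of 4 libraries was left out (replicate 2 or 3 of untreated WT or of untreated DRD5-/-), and was also lost with no filter (0.00186) or no trend (0.00236). Neutrophil markers moved with the same groups, at 42.61 to 54.46 summed FPKM in untreated M1 WT and 14.63 to 18.20 in untreated M1 DRD5-/- BMDMs, and their part in the result was not tested. DA-treated M1 libraries held 95.16, 98.02 and 100.89 FPKM in WT and 133.45, 137.22 and 124.56 FPKM in DRD5-/-, so that all 6 WT libraries were under all 6 DRD5-/- libraries.

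The receptor genes differed less. Tgfbr1 (chr4:47353222-47414931, plus strand), the type I receptor of TGF-β, was between 3.65 and 5.49 FPKM in M1 and between 22.47 and 27.00 FPKM in M2 libraries. In M1 WT it was at 4.07, 4.16 and 4.33 FPKM without DA and at 5.49, 5.06 and 4.94 FPKM with DA, without overlap. The log2 difference of 0.25 (SE 0.06) was 1.19-fold and missed both the fold limit and that on the adjusted p. Tgfbr1 was called under median-of-ratios scaling. In M2 WT BMDMs its difference was 0.10 (SE 0.03), and in DRD5-/- BMDMs it was 0.04 in M1 (SE 0.06) and 0.06 in M2 (SE 0.03, adjusted p = 0.167). Bmpr2 (chr1:59763400-59879014, plus strand), a type II receptor of BMPs, was between 4.53 and 5.39 FPKM in M1 libraries with overlap of all 4 groups. In M2 WT BMDMs it was at 7.92, 8.47 and 8.53 FPKM without DA and at 7.79, 7.49 and 7.36 FPKM with DA, and in M2 DRD5-/- BMDMs at 8.51, 8.27 and 8.46 FPKM without DA and 10.39, 9.75 and 9.69 FPKM with DA. Its log2 difference with DA was -0.12 in M2 WT (SE 0.04) and 0.22 in M2 DRD5-/- (SE 0.04, adjusted p = 0.00169), neither called, and the groups overlapped in neither genotype. Both receptor genes had their highest mean in DA-treated M2 DRD5-/- BMDMs, without overlap with the next group.

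**Figure D3:**
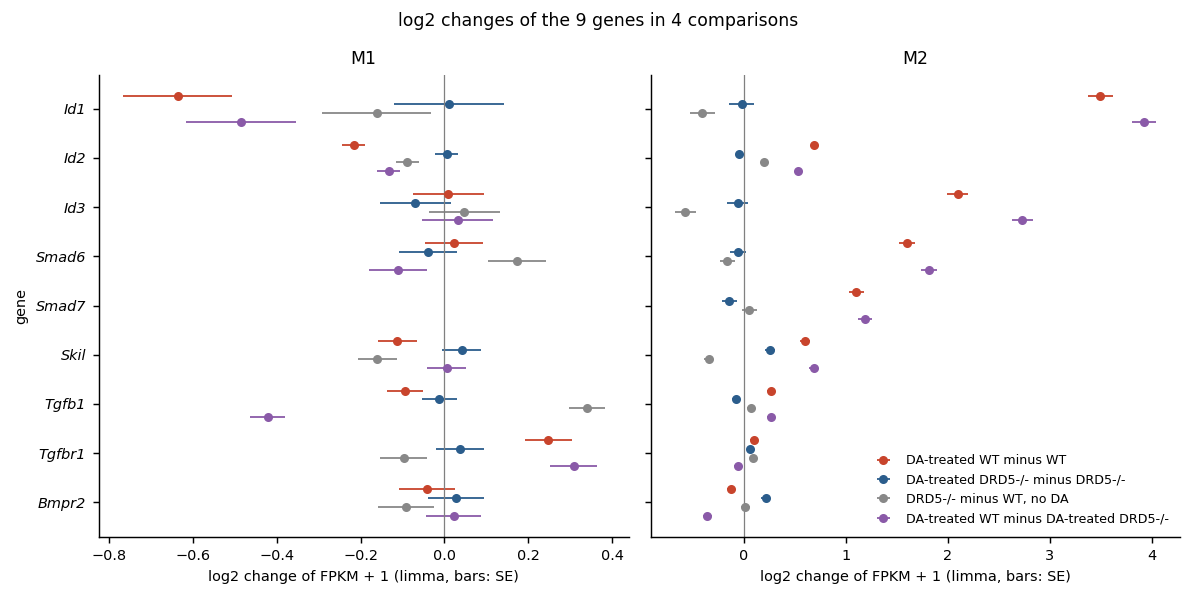
Log2 differences on the log2(FPKM + 1) scale (horizontal axes, which differ in range between the M1 and M2 panels) of the tested genes of the 9 in 4 comparisons (colours), with standard errors of the limma fit as bars and 3 libraries per group. In M2 the differences with DA of Id1, Id3, Smad6 and Smad7 exceed 1 in WT and lie between -0.14 and -0.02 in DRD5-/- BMDMs.

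Calls over the members are given beside those over all genes. A gene was called with an adjusted p under 0.001 (limma, Benjamini-Hochberg over all genes tested) and a change of at least 1.2-fold. With DA in M2 WT, 46.3% of the 10735 genes tested passed (25.9% higher, 20.4% lower). Leaving aside Smad6, which entered the fit only through its high DA-treated WT group, 6 of the other 8 members were past the threshold, all higher. As the members were chosen with these values known, nothing is read from that count. Smad6 is left aside in the next contrasts as well, since it was below 1 FPKM in the groups compared there. With DA in M2 DRD5-/-, 0 of the other 8 members passed by limma and 2 had an unadjusted p under 0.05 (Skil and Bmpr2). Of all genes 4.02% passed there, 83.8% of them higher, or 69.8% under median-of-ratios scaling. Between untreated M2 DRD5-/- and WT BMDMs, 2 of the same 8 members passed, both lower (Id3 and Skil), where 5.51% of all genes passed (1.37% higher, 4.15% lower). The share of those calls that were higher was 24.8%, or 40.1% under median-of-ratios scaling. The stromal markers were also lower there, at 86.25 to 88.38 against 134.37 to 136.74 summed FPKM, and the endothelial markers were higher, at 20.44 to 20.8 against 16.45 to 17.62. Their part in these 2 results was not tested.

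Between DA-treated M2 WT and DRD5-/- BMDMs 49.7% of all genes passed, and the values of the members are again a description. The log2 differences (WT minus DRD5-/-) were 3.92 for Id1 (SE 0.12), 2.73 for Id3 (SE 0.10), 1.82 for Smad6 (SE 0.08), 1.19 for Smad7 (SE 0.07), 0.69 for Skil (SE 0.05), 0.53 for Id2 (SE 0.03), 0.27 for Tgfb1 (SE 0.04), -0.06 for Tgfbr1 (SE 0.03) and -0.36 for Bmpr2 (SE 0.04). That of Tgfb1 was 1.204-fold and fell under the fold limit under median-of-ratios scaling (0.22) or without replicate 1 of DA-treated WT (0.24) or replicate 1 or 2 of DA-treated DRD5-/- BMDMs (0.26 in each). For the difference between the 2 genotypes in the change with DA, 43.2% of all genes passed. These contrasts share the DA-treated WT libraries with the first and are not separate evidence.

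In M1, 0 of the 8 members tested passed with DA in WT by limma and 5 had an unadjusted p under 0.05, where 14.3% of the 10040 genes tested passed (4.73% higher, 9.6% lower). Of the genes called there, 33.0% were higher with DA, or 55.6% under median-of-ratios scaling. The median log2 difference was -0.07 over the members and -0.07 over all genes. As the members were chosen with the DA-treated WT values known, nothing is read from any M1 count that includes those libraries. With DA in M1 DRD5-/-, 0 of 8 members passed and 0 had an unadjusted p under 0.05, and 0.0% of all genes passed by limma, with 569 of them at an unadjusted p under 0.05. The adjusted p of the 8 members lay between 0.923 and 0.998. Between untreated M1 DRD5-/- and WT BMDMs 1 of 8 members passed (Tgfb1, higher), where 0.936% of all genes passed. Between DA-treated M1 WT and DRD5-/- BMDMs 2 of 8 passed, where 18.5% of all genes passed: Tgfb1 was 1.34-fold lower in WT and Tgfbr1 1.24-fold higher. Tgfbr1 lost its call, with adjusted p of 0.00136 to 0.00287, without replicate 1 or 2 of either DA-treated group, with no filter or with only the groups compared in the fit. For the difference between genotypes in the change with DA, 0 of 8 members passed by limma and 4 had an unadjusted p under 0.05, where 8.38% of all genes passed. Of the calls over all genes between DA-treated M1 WT and DRD5-/-, 32.1% were higher in WT, or 52.5% under median-of-ratios scaling, and the corresponding shares for the difference between genotypes were 38.2% and 63.9%.

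Other genes of the pathways came from 7 lists with 75 distinct genes (ligands, receptors, latency and extracellular regulators, Smads, intracellular inhibitors, target genes and E proteins), of which 52 were tested in M2 and 43 in M1. With DA in M2 WT, 29 of 52 passed, 13 higher and 16 lower, beside 46.3% of all genes, with a median log2 difference of -0.10 against 0.03 over all genes, so these genes moved in both directions. The lists were chosen with earlier results of these data known, so their counts are a description. Over all genes 25.9% were higher and 20.4% lower. Of the 7 lists, target genes held the most rises: 5 of 10 tested were higher and 2 lower, with a median of 0.22. Of the receptors 1 of 9 was higher and 4 lower, of the latency and extracellular regulators 1 of 10 was higher and 6 lower, and of the Smads 0 of 5 passed. The intracellular inhibitors had 3 of 10 higher and 2 lower, the ligands 2 of 6 higher and 2 lower, and the E proteins 1 of 3 higher and 1 lower. With DA in M2 DRD5-/-, 1 of 52 passed, beside 4.02% of all genes. It was Grem1, a BMP antagonist named after its value was seen (limma, log2 difference 0.31, adjusted p = 0.000153).

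Among the target genes, Tgfbi, which encodes an extracellular matrix protein named for its induction by TGF-β, was at 56.55, 56.62 and 59.62 FPKM in untreated and 345.27, 347.77 and 337.89 FPKM in DA-treated M2 WT BMDMs. This log2 rise of 2.56 (SE 0.03, adjusted p = 1.62e-16) was the largest among the pathway genes. Tgfbi, Ctgf, Klf10 and the genes of the next paragraph were named for the size of this change. Their adjusted p-values from limma therefore only describe its size against the spread between libraries. Ctgf rose from a mean of 3.73 to 14.8 FPKM (1.75, SE 0.09, adjusted p = 3.22e-10), and Klf10, a zinc finger gene induced by TGF-β, rose from 12.2 to 33.6 FPKM (1.39, SE 0.04, adjusted p = 5.78e-13). In M2 DRD5-/- BMDMs without and with DA, mean FPKM was 29.9 and 32.7 for Tgfbi and 4.23 and 3.69 for Ctgf.

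Other rises with DA in M2 WT BMDMs were those of Pmepa1, which dampens TGF-β signalling (1.28, SE 0.07, adjusted p = 3.35e-10), the ligand gene Gdf15 (1.21, SE 0.10, adjusted p = 8.57e-08), the activin subunit gene Inhba (1.18, SE 0.11, adjusted p = 3.53e-07) and Thbs1, an activator of latent TGF-β (0.94, SE 0.03, from 12.1 to 24.1 FPKM). Among the genes that fell were Bmp2, a BMP ligand, from 3.51 to 0.827 FPKM (log2 difference -1.31, SE 0.08, adjusted p = 1.67e-09), and Ldlrad4, an inhibitor of TGF-β signalling, from 3.10 to 1.12 FPKM (-0.95, SE 0.07, adjusted p = 1.79e-08). Bmp2 averaged 4.22 FPKM in untreated and 4.78 FPKM in DA-treated M2 DRD5-/- BMDMs. The fall of Bmp2 and the higher Id1 level were thus measured in the same 3 libraries, and a link between them was not tested.

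Among the direct partners of the members with DA in M2 WT BMDMs, Tgfbr2, the type II receptor that works with Tgfbr1, fell from 49.0 to 34.6 FPKM (log2 difference -0.49, SE 0.02, adjusted p = 2.49e-10), and Bmpr1a, a type I receptor that works with Bmpr2, fell from 1.91 to 1.29 FPKM (-0.35, SE 0.06, adjusted p = 0.000238). Bmpr1a lost its call without replicate 2 or 3 of either group, at adjusted p of 0.00108 to 0.00194. The Smads that carry the signal had log2 differences of 0.09 for Smad1, 0.13 for Smad2, -0.17 for Smad3, -0.20 for Smad4 and 0.16 for Smad5, and none was called. Of the E proteins that Id proteins bind, Tcf3 rose from 12.8 to 18.2 FPKM (0.48, SE 0.07, adjusted p = 1.18e-05), Tcf4 fell from 22.1 to 15.3 FPKM (-0.50, SE 0.04, adjusted p = 1.94e-08) and Tcf12 had a difference of 0.09 (SE 0.04, adjusted p = 0.0621). Summed stromal markers were lower in the same libraries (111.55 to 112.32 against 134.37 to 136.74 FPKM). Summed macrophage markers were too (8348.52 to 8387.6 against 10719.11 to 10889.78 FPKM). Within the stromal list Dcn, Lum and Pdgfra passed lower (log2 differences -0.78, -0.75 and -0.83), but Col1a1 and Col3a1 higher (0.29 and 0.30). Within the macrophage list Cd14, Mertk, Lyz2 and Csf1r passed lower (-1.415, -0.91, -0.52 and -0.50), but Itgam higher (0.58). The part of these markers in the results was not tested.

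**Figure D4:**
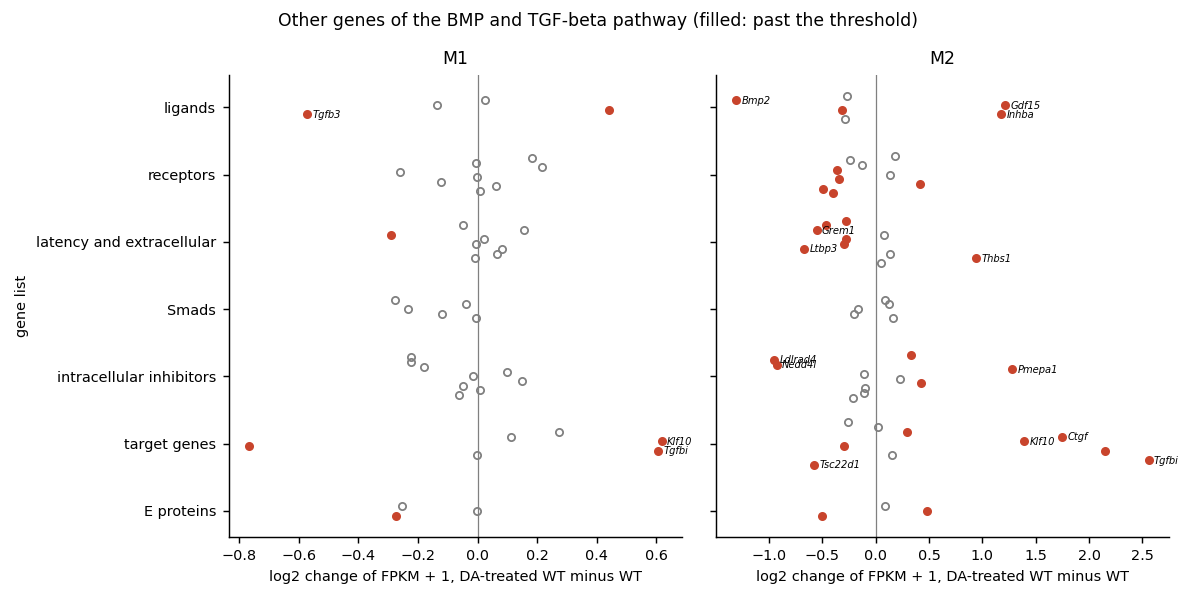
Log2 differences with DA in WT BMDMs (horizontal axis, log2(FPKM + 1) scale) of the tested genes of the 7 pathway lists (vertical axis), with M1 and M2 in separate panels; filled points passed an adjusted p under 0.001 and a 1.2-fold change. In M2, 13 genes passed higher and 16 lower, and in M1, 3 higher and 4 lower.

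In M1 WT BMDMs 7 of 43 pathway genes passed with DA, 3 higher and 4 lower, beside 14.3% of all genes. Tgfbi rose from 293.6 to 447.6 FPKM (log2 difference 0.61, SE 0.02, adjusted p = 1.37e-10), Klf10 from 10.4 to 16.6 FPKM (0.62, SE 0.05, adjusted p = 3.48e-07) and Inhba from 7.69 to 10.8 FPKM (0.44, SE 0.07, adjusted p = 0.00018). Tgfb3, a TGF-β ligand, fell from 1.10 to 0.413 FPKM (-0.57, SE 0.07, adjusted p = 2.05e-05), Furin, which encodes a protease that processes the TGF-β1 precursor, from 63.3 to 51.6 FPKM (-0.29, SE 0.03) and Tcf4 from 16.5 to 13.5 FPKM (-0.27, SE 0.05). Furin and Tcf4 lost their calls under median-of-ratios scaling (-0.22 and -0.20). Tcf4 also did without replicate 2 or 3 of untreated or 1 or 3 of DA-treated WT BMDMs, at adjusted p of 0.0013 to 0.00185, and with only the groups compared in the fit, at 0.00161. Inhba lost its call without replicate 1 of either group, at adjusted p of 0.00132 and 0.00139, and with no filter, at 0.00146. Tgfbi, Klf10 and Inhba rose with DA under both stimuli, but were named for the size of these changes, so this is a description. Partners that were not called had log2 differences of -0.28 for Smad1, -0.04 for Smad2, -0.23 for Smad3, -0.12 for Smad4, -0.00 for Smad5, 0.01 for Tgfbr2, -0.12 for Bmpr1a, -0.00 for Tcf3 and -0.25 for Tcf12, and the signs of Smad2, Smad5 and Tcf3 turned under median-of-ratios scaling. Tcf12 was called with a pseudocount of 0.1 (adjusted p = 0.000801). With DA in M1 DRD5-/- BMDMs 0 of 43 pathway genes passed by limma, beside 0.0% of all genes.

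Without DA, 7 of 52 pathway genes passed between M2 DRD5-/- and M2 WT BMDMs, all lower in DRD5-/-, where 4.15% of all genes passed lower. Tgfbi had a difference of -0.92 (SE 0.03, adjusted p = 1.33e-10), Bmpr1a of -0.47 (SE 0.06, adjusted p = 0.000105) and Thbs1 of -0.30 (SE 0.03, adjusted p = 1.10e-05). The other 4, named after their values were seen, were Gdf3 (-1.25), Grem1 (-1.05), Ltbp2 (-0.74) and Fstl1 (-0.55). The stromal markers were lower in the same DRD5-/- libraries, and their part in these results was not tested.

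Genes whose pattern over the 12 libraries of a stimulus was most like that of a member were found by Pearson's r of log2(FPKM + 1), which in M2 is set mainly by the distance of the 3 DA-treated WT libraries from the other 9. In M2 the 3 nearest genes were Mars, Sars and Slc7a1 for Id1 (r of at least 0.9965), Cxcl14, Tpi1 and Igfbp4 for Id2 (0.990 to 0.994), Ripk2, Mrps5 and Coro1a for Id3 (0.9945 to 0.999), Pno1, Prmt3 and Eif4e for Smad6 (0.996) and Cdt1, Ruvbl2 and Arpc2 for Smad7 (0.995 to 0.997). They were Lrrfip1, Ets2 and Fam129a for Skil (0.987 to 0.993), Ppp2r1a, Kat2a and Fastk for Tgfb1 (0.971 to 0.9725), Cd274, Il12rb2 and Specc1 for Tgfbr1 (0.877 to 0.908) and Washc4, Fmn1 and Olfr111 for Bmpr2 (0.965 to 0.9725). In M1 the values were highest for Tgfb1, with Grina, Ppp1r18 and Bri3 (0.988 to 0.991), Tgfbr1, with Gbp9 and Dock10 (0.974 to 0.980), and Id2, with Sertad1 and Psmc5 (0.966 to 0.967). They were lower for Skil, with Trip12, Ubr3 and Cep170 (0.944 to 0.958), Bmpr2, with LOC100041708, F420015M19Rik and Cpne3 (0.896 to 0.947), Id1, with Magoh, Gbp2b and Timm44 (0.926 to 0.932), Smad6, with Ctif, Taok2 and Msl1 (0.873 to 0.897), and Id3, with Ighmbp2, Ndufv3 and Setd3 (0.722 to 0.791). None of the 3 genes nearest to a member in M1 was among its 3 nearest in M2.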

How the data were processed

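RNA of 24 libraries was sequenced on a BGISEQ-500. The authors deposited FPKM with 2 decimals for each library, which they had obtained by filtering reads, mapping them and scaling matched fragments by transcript length and library size. The study's methods name HISAT2, whereas the submitters' processing notes name Bowtie2 (2.2.5) and GRCm38.p6. Fragments shared by near-identical genes are assigned by that counting, and its settings are not given in the sources used here.

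FPKM were used as deposited. For each stimulus, genes that reached 1 FPKM in 3 or more of its 12 libraries were fitted on log2(FPKM + 1) with limma 3.58.1 (R 4.3.3), with a mean per group and an intensity trend, after the script was tested on simulated data. M1 and M2 were fitted separately. The p-values were adjusted by Benjamini-Hochberg over all genes tested, and calls needed an adjusted p under 0.001 and a 1.2-fold change. The members and gene lists were chosen with earlier results of these data known. Named genes were the 9 members, up to 10 pathway genes per stimulus with the largest called changes with DA in WT, fixed partners (Tgfbr2, Bmpr1a, 5 Smads and 3 E proteins) and the 3 genes nearest to each member; 1 of these pathway genes and 2 of these nearest genes are not reported here. Alternatives were no filter on low values, a pseudocount of 0.1, median-of-ratios scaling, a replicate block, fewer groups in the fit, no trend, an adjusted p of 0.05, and leaving out each library. Gene positions came from GENCODE M21 (GRCm38) and promoter windows from RefSeq (GRCm38.p6). Other computations used Python 3.11.15, numpy 2.4.6, pandas 2.3.3 and matplotlib 3.10.9. FPKM keep no depth, so no counting intervals are given.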

Additional observations from a re-analysis of the deposited data

Results flagged for a closer look

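In M2 BMDMs the change with DA in WT was set against that in DRD5-/- by limma's interaction term. The differences of the log2 changes (WT minus DRD5-/-) were 3.52 for Id1, 2.16 for Id3, 1.66 for Smad6, 1.24 for Smad7, 0.73 for Id2, 0.34 for Skil, 0.34 for Tgfb1 and -0.34 for Bmpr2. The members were chosen with these values known, and Smad6 entered the fit only through the DA-treated WT libraries, so the values are a description and no test.

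Several genes had opposite signs in M1 and M2, with no overlap of the libraries compared in either. The share of all genes with such a pattern was not counted, so nothing is read from the number of genes listed. With DA in WT, 14.3% of all genes tested were called in M1 and 46.3% in M2. The difference between M1 and M2 was not tested, because the M1 and M2 files list different genes. For the change with DA in WT, log2 differences in M1 and M2 were -0.64 and 3.50 for Id1, -0.22 and 0.69 for Id2, -0.11 and 0.60 for Skil, -0.095 and 0.27 for Tgfb1, -0.040 and 0.13 for Smad2 and -0.25 and 0.088 for Tcf12, and the M1 sign of Smad2 turned under median-of-ratios scaling. None of these M1 differences was called, and those of Smad2 and Tcf12 were not called in M2 either. The M1 values of Skil and Tgfb1 (limma, adjusted p = 0.0608 and 0.0816) lay near the M1 median of -0.067 over all genes. For untreated DRD5-/- against untreated WT they were -0.089 and 0.20 for Id2, 0.17 and -0.16 for Smad6 and -0.097 and 0.094 for Tgfbr1, and none of these was called. The M2 value of Smad6 set 0.33 against 0.49 FPKM, both below 1 FPKM. For DA-treated WT against DA-treated DRD5-/- they were -0.13 and 0.53 for Id2, -0.42 and 0.27 for Tgfb1 and 0.31 and -0.057 for Tgfbr1. Here Id2 in M1 and Tgfbr1 in M2 were not called. Groups held 3 libraries each, so no single library was examined for distance from its group.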

How the results depend on the processing

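Of the counts of members past the threshold under the alternatives, 155 values stayed within 1.5 times that reported and 33 moved; the cause of a move was not tested except where the setting itself shows it. With DA in M1 WT (0 members), median-of-ratios scaling gave 1 (Tgfbr1), an adjusted p of 0.05 gave 1 (Id1), and leaving out single libraries gave 0 to 1. The M1 interaction (0) gave 1 at an adjusted p of 0.05 and 0 without any library. Untreated M1 DRD5-/- against WT (1, Tgfb1) gave 0 with no filter, 0 with no trend and 0 to 1 without a library. DA-treated M1 WT against DRD5-/- (2) gave 1 with no filter, 1 with only the groups compared and 1 to 3 without a library. With DA in M2 DRD5-/- (0), a pseudocount of 0.1 gave 1 (Skil). Untreated M2 DRD5-/- against WT (2, Id3 and Skil) gave 1 (Skil) with no filter, with the other pseudocount, with median-of-ratios scaling and with no trend, 0 with only the groups compared, 3 at an adjusted p of 0.05 and 1 to 2 without a library. With DA in M2 WT 7 became 5 to 7 without a library, and 8 became 6 to 8 in DA-treated M2 WT against DRD5-/- and in the M2 interaction; Smad6 was not tested without any DA-treated M2 WT library, since it then missed the filter. Replicate numbers were shared between groups, but same-numbered libraries did not deviate together (mean r of residuals -0.021 in M1 and -0.016 in M2, 1 of 18 pairs over 0.1 in each; 1 of 12 libraries in M1 and 4 of 12 in M2 correlated best with their own number), and the replicate block gave 1 member (Skil) for untreated M2 DRD5-/- against WT and the reported count of members elsewhere. Among members (with DA in WT, and the interaction) and named pathway genes (with DA in WT), signs turned only for genes that were not called, all in M1. With DA in M1 WT, median-of-ratios scaling gave 0.01996 for Bmpr2, 0.02063 for Smad2, 0.0331 for Smad5 and 0.05926 for Tcf3. Leaving out single libraries gave -0.08207 to 0.006215 for Bmpr2, -0.07155 to 0.07473 for Id3, -0.02712 to 0.01873 for Smad5, -0.07204 to 0.06426 for Tcf3, -0.01177 to 0.04518 for Tgfbr2 and, for the interaction of Id3, -0.002033 to 0.1442. Fitting only the groups compared gives no interaction value.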
